A study of Vitis vinifera with 2 samples.

Results

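The genes described here encode enzymes of the entry into phenylpropanoid metabolism: 3 genes of phenylalanine ammonia-lyase (PAL), 3 of cinnamate 4-hydroxylase (C4H) and 2 of 4-coumarate:CoA ligase (4CL). They were chosen as a list of 8 identifiers, with the PAL genes of a tandem array on chromosome 16 left out. A peak was assigned to one of them where that gene was the peak's nearest gene or was named in the peak's annotation. By this rule the 8 genes held 33 of the 49173 peaks in the list, which named 20804 genes in all. The enzyme names come with the list of members, since the deposited list gives identifiers only.

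PAL removes ammonia from phenylalanine to give cinnamic acid. C4H, a cytochrome P450, hydroxylates cinnamic acid to p-coumaric acid, and 4CL joins p-coumaric acid to coenzyme A. The product, p-coumaroyl-CoA, is the branch point from which plants make lignin, flavonoids and, in grapevine, stilbenes such as resveratrol. Lignin stiffens and waterproofs the walls of water-conducting cells.

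The data came from chromatin immunoprecipitation followed by sequencing (ChIP-seq) in leaves of Vitis vinifera plants aged 4 months. All plants overexpressed VlbZIP30, a basic leucine zipper transcription factor, fused to 3 copies of the FLAG epitope and driven by the CaMV35S promoter, a viral promoter active in most plant tissues. All had been without water for 20 days, and the youngest leaves at the shoot tip were taken. The anti-FLAG precipitate gave 1 library, and 1 more library served as the control. That control is an input by its title and an IgG precipitate by its antibody field.

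No watered plants, no plants without the tag and no replicate libraries were analysed here, so the values below describe 1 list, without replicate error and without a test. The overexpressed protein, driven outside its own promoter, limits the list as a model of the native factor. The depth of the libraries is unknown. The score of a peak is the authors' own, on a scale that the list does not name, and it is used only to rank peaks within the list, where its median was 7.56 and its quartiles 3.64 and 18.5.

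All 8 genes had at least 1 peak, and 7 of them had a peak that covered the transcription start site (TSS). The exception was the C4H gene VIT_11s0078g00290, which had 1 weak peak upstream of its TSS. Among all 20152 genes that were nearest to a peak, 61.6% had such a peak over the TSS, and among those with 2 or more peaks 68.9% did. Peaks over the TSS that also scored at or above the upper quartile of the list stood at the same 7 genes and at 28.0% of all nearest genes. A gene enters the list only through a peak, and the 8 genes were chosen with results of these data known, so these counts are descriptions.

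The annotation class of a peak gave a lower count than its extent. The class is set by the peak centre, and a centre between -1000 and 100 bp of the TSS made a peak a promoter peak. By class, 4 of the 8 genes had a promoter peak, against 57.2% of all genes named in the list, so the share among the members was near the background. By distance, 6 of the 8 genes had a peak centre within 1 kb of the TSS, against 76.9% of all nearest genes, which is again near the background. The count depends on the distance, with 4 genes within 500 bp and 8 within 2 kb. No share over all genes is given at 500 bp or 2 kb, so these counts cannot be read against a background. The other 3 genes with a covered TSS, the PAL genes VIT_06s0004g02620 and VIT_13s0019g04460 and the 4CL gene VIT_16s0039g02040, had long peaks centred inside the gene, which the list classes as intron or exon. Over all genes with a peak over the TSS, that peak was classed as exon or intron in 20.7% and as promoter in 73.6%.

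**Figure D1:**
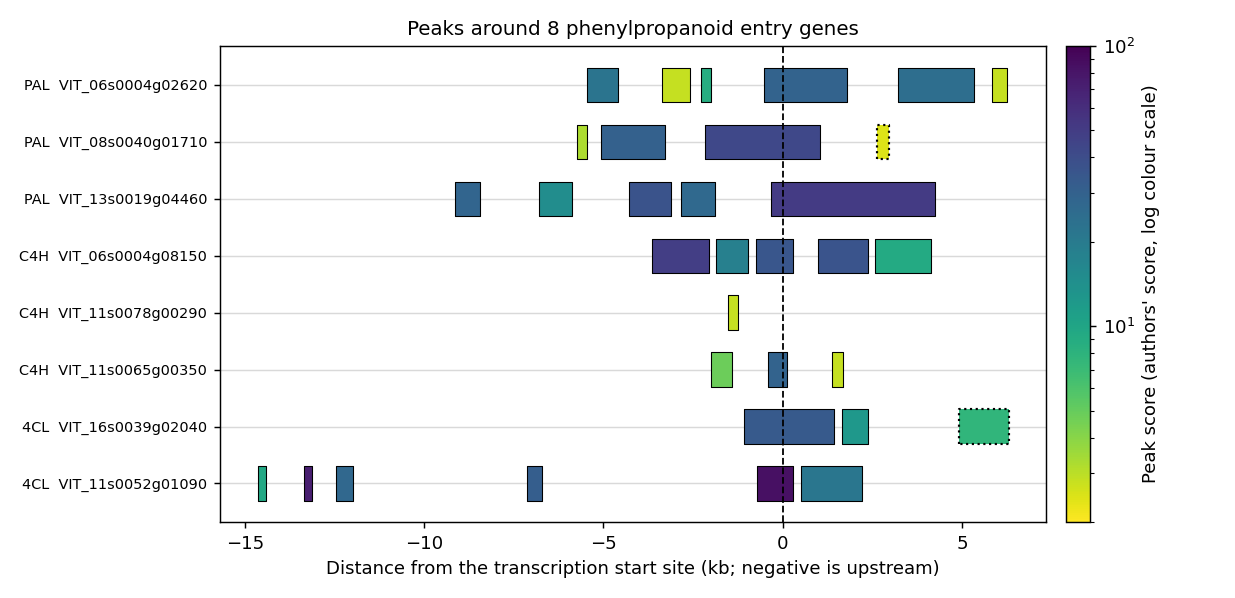
Position of the 33 peaks relative to the TSS of each gene, in kb along the direction of transcription, with 1 row per gene and the colour giving the authors' peak score on a log scale; a dotted outline marks the 2 peaks whose nearest gene is a neighbour. In 7 rows a peak crosses the dashed line at the TSS, and in the row of VIT_11s0078g00290 the only peak is upstream.

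All 3 PAL genes had long peaks over the TSS, from 2320 to 4554 bp. On chromosome 6, VIT_06s0004g02620 had a peak of 2320 bp (3235148 to 3237467) with a score of 29.4. It ran from 521.5 bp upstream to 1797.5 bp downstream of the TSS at 3236945, on the minus strand, and was centred in intron 1 of 1. The signed distances in the list fix each strand and TSS position given here.

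On the upstream side of VIT_06s0004g02620 lay 3 intergenic peaks. The farthest was centred 5021 bp from the TSS and scored 22.2 with a length of 853 bp. The next, 2972 bp upstream, scored 2.80 and the nearest, 2133 bp upstream, scored 8.68. The gene therefore had a run of peaks of unequal score, with the lowest between 2 higher ones.

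Farther downstream of the TSS of VIT_06s0004g02620 the list gave 2 peaks that are nearest to that TSS but are annotated to the neighbouring gene VIT_06s0004g02610. One, of 2143 bp, was classed at that neighbour's transcription termination site (TTS) and scored 24.6. The class does not place this whole peak inside the neighbour, and the list does not give where either gene ends. The other lay in intron 3 of 3 of the neighbour and scored 2.82. Neither can be assigned to PAL by position alone.

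On chromosome 8, VIT_08s0040g01710 had a promoter peak of 3234 bp (12829443 to 12832676) with a score of 42.6. It reached 2178.5 bp upstream and 1054.5 bp downstream of the TSS at 12830497, on the minus strand. The score was at or above that of 90.0% of the highest promoter peaks of the 11907 genes with one. A second strong peak, with a score of 30.3 and a length of 1783 bp, was centred 4162 bp upstream, at the TTS of the neighbour VIT_08s0040g01720. A peak in intron 2 of 2 of that neighbour scored 3.22. At the 3′ end of the PAL gene itself a peak of 340 bp scored 2.45, the lowest of all 33, and its nearest TSS was that of VIT_08s0040g01700. The signal at this gene was thus concentrated in 1 broad peak over the start and in 1 peak shared with a neighbour.

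On chromosome 13, VIT_13s0019g04460 had the longest peak of the set, 4554 bp (5881017 to 5885570), with a score of 50.9. It began 317.5 bp upstream of the TSS at 5881334, on the plus strand, and extended 4235.5 bp downstream, with its centre in exon 2 of 2. Among all peaks over a TSS its length was at or above 98.0%. Upstream lay 4 intergenic peaks, with scores of 26.7 at 2363 bp, 36.9 at 3696 bp, 15.0 at 6325 bp and 28.4 at 8792 bp from the TSS. Each of the 5 peaks at this gene scored above the list median, and 4 were at or above the upper quartile.

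**Figure D2:**
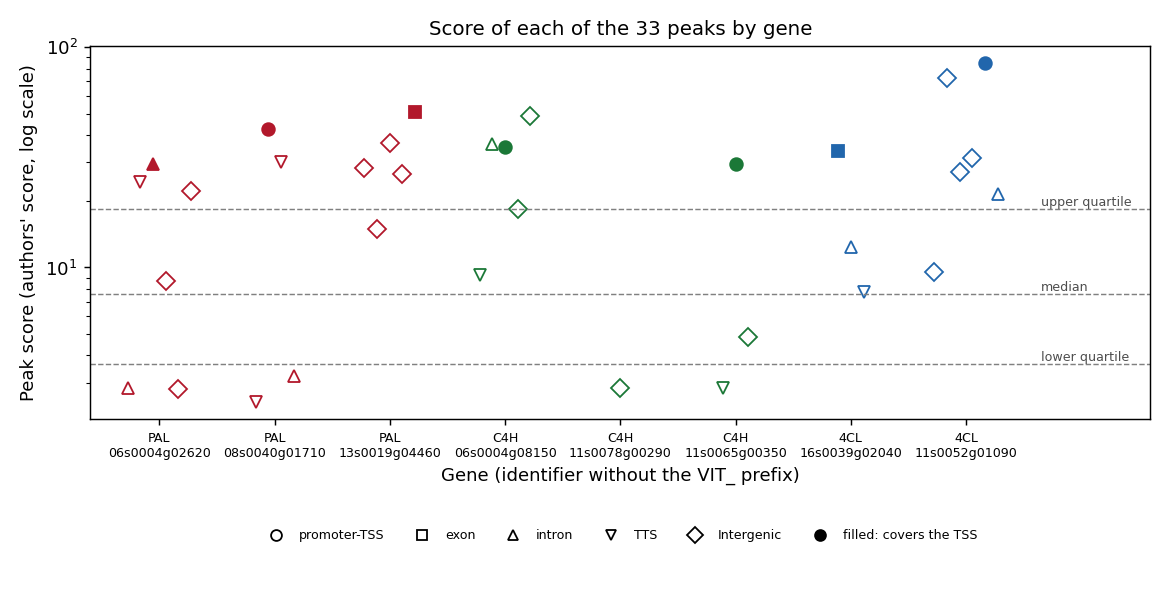
Authors' score of each of the 33 peaks, on a log axis, by gene; the marker gives the annotation class, a filled marker a peak over the TSS, and the dashed lines the quartiles of all 49173 peaks. The 7 filled markers lie above the upper quartile of 18.5, while the only peak of VIT_11s0078g00290, at 2.82, lies below the lower quartile of 3.64.

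The 3 C4H genes ranged from a chain of 5 peaks to a single weak one. On chromosome 6, VIT_06s0004g08150 had 5 peaks in a chain of 7787 bp that ran from upstream of its TSS to its 3′ end. The promoter peak (8885616 to 8886652, 1037 bp) scored 35.1 and ran from 742 bp upstream to 294 bp downstream of the TSS at 8885910, on the minus strand. A peak of nearly the same score, 36.3, was centred in intron 2 of 2. The highest score at this gene, 49.0, belonged to an intergenic peak (8887970 to 8889553) centred 2851 bp upstream. Between it and the promoter peak lay a peak with a score of 18.5, and the TTS held one with a score of 9.26.

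The gaps between neighbouring peaks of VIT_06s0004g08150 were 199, 701, 217 and 202 bp from left to right. In this gene alone among those with a covered TSS, the peak over the TSS was not the highest-scoring of its own peaks.

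On chromosome 11, the C4H gene VIT_11s0065g00350 had a short promoter peak of 536 bp (14092076 to 14092611) with a score of 29.4. It reached 412.5 bp upstream and 122.5 bp downstream of the TSS at 14092198, on the minus strand. Its length was at or above only 27.1% of all peaks over a TSS, yet its score was at or above 89.7% of those of like length (within 20%, 2396 peaks). The other 2 peaks of the gene were weak, with scores of 4.81 at 1708 bp upstream and 2.82 at 1543 bp downstream, the latter at the TTS of the neighbour VIT_11s0065g00340. The score of 29.4 equals that of the PAL peak in VIT_06s0004g02620, and 131 peaks of the list hold this value, so the order of these genes cannot be resolved.

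The remaining C4H gene, VIT_11s0078g00290, also on chromosome 11, had a single intergenic peak of 290 bp (12501778 to 12502067) with a score of 2.82. It was centred 1380 bp upstream of the TSS. This score, held by 2011 peaks of the list, was at or above that of 16.9% of all peaks. The next peaks of the list lay 43196 bp away on one side and 65115 bp on the other. With 1 peak, the strand of this gene could not be recovered from the list.

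Both 4CL genes had a peak over the TSS followed by a weaker one in intron 1. On chromosome 16, VIT_16s0039g02040 had a peak of 2520 bp (2122257 to 2124776) with a score of 33.7. It reached 1086.5 bp upstream and 1432.5 bp downstream of the TSS at 2123343, on the plus strand, and was centred in exon 1 of 6. After a gap of 230 bp came a peak in intron 1 of 5 with a score of 12.3. One more peak, at the TTS of the gene, scored 7.73 and was nearer to the TSS of VIT_16s0039g02050. No intergenic peak upstream had this gene as its nearest.

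On chromosome 11, VIT_11s0052g01090 had the highest score of the set, 85.0, at a promoter peak of 989 bp (18816031 to 18817019). It ran from 710 bp upstream to 278 bp downstream of the TSS at 18816741, on the plus strand. The score ranked 313 among all peaks and was at or above that of 99.2% of the highest promoter peaks of all genes with one. Among peaks over a TSS of like length it was at or above 99.0%. A peak in intron 1 of 4 began 221 bp further on and scored 21.5.

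Far upstream of VIT_11s0052g01090 lay 4 short intergenic peaks that scored high for their length. A peak of 215 bp (18803397 to 18803611), centred 13237 bp upstream, scored 72.3, at or above 99.9% of the 6874 peaks of like length. Of the 6088 peaks of 250 bp or less in the list, 12 scored 50 or more, limits set after the values had been seen. The other 3, of 226, 465 and 419 bp, scored 9.58, 27.2 and 31.5 at 14529, 12219 and 6930 bp upstream, at the 95.4, 93.3 and 96.8 percentile for their length. These peaks are assigned to the 4CL gene only because its TSS is the nearest.

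The genes whose promoter peak was most like that of VIT_11s0052g01090 were VIT_17s0000g07490, with a score of 91.9, a length of 970 bp and a centre 229 bp upstream of the TSS, and VIT_00s0225g00010, with 70.2, 951 bp and 211 bp. Likeness was the sum of the differences in percentile of score, length and distance (2.68 and 3.60 percentage points) and rests on 1 list.

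**Figure D3:**
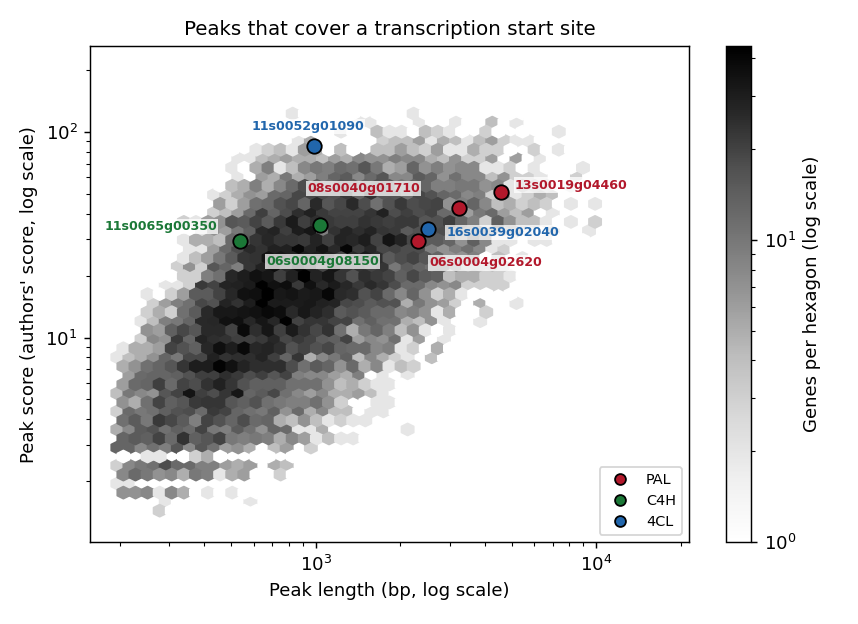
Score against length, both on log axes, of the highest-scoring peak over the TSS at each of 12410 genes (grey hexagons, darker for more genes), with the 7 phenylpropanoid genes that have one as coloured points. The PAL points lie to the right, at 2320 to 4554 bp, with the 4CL gene VIT_16s0039g02040 among them at 2520 bp. The C4H points lie at 536 and 1037 bp, and VIT_11s0052g01090 lies near the upper edge for its length.

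Ranked by the peak over the TSS, the order was VIT_11s0052g01090 (4CL, score 85.0), VIT_13s0019g04460 (PAL, 50.9), VIT_08s0040g01710 (PAL, 42.6), VIT_06s0004g08150 (C4H, 35.1) and VIT_16s0039g02040 (4CL, 33.7), with VIT_06s0004g02620 (PAL) and VIT_11s0065g00350 (C4H) tied at 29.4. Without replicates no spread is known for any step of this order. The median score of these 7 peaks was 35.1, against 16.4 over all 12410 genes with a peak over the TSS, whose quartiles were 8.12 and 31.1. All 7 lay above that median, at the 73.2 to 98.7 percentile.

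Score and length rise together in the list, and the length moved with these results. The median length of the 7 peaks was 2320 bp, against 824 bp over all such genes. Compared only with peaks over a TSS of like length, the PAL peaks were at the 45.9, 62.7 and 65.1 percentile and the 4CL peak of VIT_16s0039g02040 at the 51.8. The C4H peaks were at the 77.8 and 89.7 percentile and VIT_11s0052g01090 at the 99.0. For their length, the long peaks of PAL and VIT_16s0039g02040 scored nearer the middle than the shorter peaks of C4H and VIT_11s0052g01090.

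The 8 genes had a median of 4 peaks of which they were the nearest gene, against 2 over all nearest genes. There were 5 or more such peaks at 4 of them, VIT_06s0004g02620, VIT_13s0019g04460, VIT_06s0004g08150 and VIT_11s0052g01090, against 10.9% of all nearest genes. The families did not separate in this respect, since PAL genes had 6, 3 and 5, C4H genes 5, 1 and 3, and 4CL genes 2 and 6. Of the 33 peaks, 20 scored at or above the upper quartile, as did 25.5% of all peaks. Peaks of 1 gene are not independent, and VIT_11s0052g01090 alone gave 5 of the 20.

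By class, the 33 peaks were 15 intergenic, 6 intron, 6 TTS, 4 promoter and 2 exon. Over all peaks the shares were 32.5% intergenic, 14.6% intron, 13.2% TTS, 25.2% promoter and 14.5% exon. Each of the 15 intergenic peaks was upstream of its gene, but no share of upstream peaks among all intergenic peaks is given here. These 15 peaks stood at 6 of the 8 genes, against 35.6% of all nearest genes with an upstream intergenic peak. The genes without one were VIT_08s0040g01710 and VIT_16s0039g02040, whose peaks over the TSS reached farthest upstream. A peak in an exon or intron of the gene itself was found at 5 genes, against 46.8% of all genes named in the list.

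**Figure D4:**
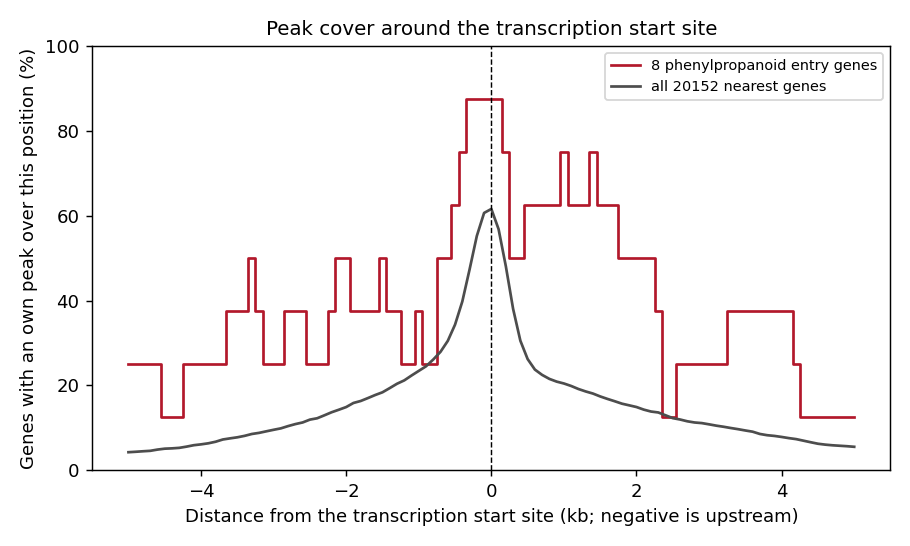
Share of genes with a peak of their own over each position from 5 kb upstream to 5 kb downstream of the TSS, in steps of 100 bp, for the 8 genes (red steps, 12.5% per gene) and for all 20152 nearest genes (grey line). Both are highest at the TSS, with 7 of 8 genes and 61.6%, and at 1000 bp downstream the values are 6 of 8 and 20.4%. At 2500 bp downstream they are 1 of 8 and 12.3%, and at 900 bp upstream 2 of 8 and 24.5%.

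Peak cover was also counted by distance from the TSS. At 500 bp downstream, 5 genes were covered, all 3 PAL and both 4CL genes but none of the C4H genes, against 26.2% of all nearest genes. VIT_11s0052g01090 counts there through an intron peak that begins at 500 bp, and at 400 bp downstream 4 genes were covered, against 30.5%. At 1000 bp downstream 6 genes were covered, with VIT_06s0004g08150 added through its intron peak, against 20.4%. At 900 and 1100 bp downstream 5 were covered, against 20.9% and 19.9%. At 500 bp upstream 5 genes were covered, against 34.3%, and at 2000 bp upstream 4 were, against 14.9%. Of all nearest genes, 7305 had only 1 peak, so part of the grey curve rests on genes with few peaks.

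In their surroundings, the peaks over the TSS were often the highest. Within 25 kb on either side, the peak over the TSS was the highest-scoring peak at 4 of the 7 genes, namely VIT_08s0040g01710 (of 15 peaks), VIT_13s0019g04460 (of 7), VIT_16s0039g02040 (of 8) and VIT_11s0052g01090 (of 6). The same held for 20.0% of the 8850 genes with a known TSS position and a peak over it. At VIT_06s0004g02620 a peak of a neighbouring gene scored higher, with 49.6, and at VIT_11s0065g00350 one scored 31.1. At VIT_06s0004g08150 the higher peaks were its own upstream and intron peaks. Within 10 kb the count was 6 genes, all but VIT_06s0004g08150, and within 50 kb it was 2, VIT_13s0019g04460 and VIT_11s0052g01090. For the 10 kb and 50 kb windows no share over all genes is given, so these counts have no background. The number of peaks in these windows differs between genes, and fewer competing peaks make a first rank more likely.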

How the data were processed

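ChIP-seq was done on 1 anti-FLAG and 1 control library. The submitters' processing notes name BWA, MACS2 and HOMER. Roles, versions, settings, genome build and annotation are not stated there. Per the file headers, the authors deposited for each peak a position, a peak score on an unnamed scale, an annotation and a signed distance to the nearest TSS. The lowest score was 1.30142, next to 1.30103, which is -log10 of 0.05. No read counts were used here, so depth is unknown.

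Strand and TSS were recovered from the signed distances of genes with 2 or more peaks (12847 genes, tolerance 1 bp, 0 genes without a solution). The reach of a peak around the TSS needs no strand. Percentiles are the share of values at or below the member's. The functions were tested on simulated data. Of the 8 identifiers, 0 matched the RefSeq table of 29591 genes (assembly ASM3070453v1), so no sequence and no further pathway gene is given. The members and lists were chosen with earlier results of these data known. Overlap with the TSS was planned as an alternative to the promoter class; its use as a count of its own, with its percentiles and alternatives, was added after the peaks had been seen. The named genes are the 8 members, the genes sharing a peak with one, and the 2 most like the member with the highest promoter score. Values were computed in Python 3.11.15 (pandas 2.3.3, numpy 2.4.6, scipy 1.17.1) and drawn with matplotlib 3.10.9.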

Additional observations from a re-analysis of the deposited data

How the results depend on the processing

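Counts of genes were taken as moved beyond 1.5 times the reported count, and median percentiles when outside the 95% exact binomial interval over the background genes, so a percentile moves by less than a count. That interval does not measure the uncertainty of a median over so few members. By these limits 8 of 24 alternative values moved, and 8 of the 24 alternatives were chosen after seeing the data. Some alternatives could not have moved. With 8 genes in all, a count of 6 or 7 cannot rise beyond 1.5 times. Any peak over the TSS whatever its nearest gene, peak edges within 500 bp and peak centres within 2 kb can only keep or raise the count. The share that did not move is therefore no measure of stability. The count of genes with a promoter peak, 4 by class, was 6 with peak centres within 1 kb of the TSS and 7 when any peak that overlapped the TSS counted, because long peaks centred in the gene carry another class. The count of genes with a peak over the TSS was 7 with peaks at or above the median or the upper quartile of the score. It was also 7 with any peak whatever its nearest gene, and with peak edges within 500 bp. At the upper quartile the share over all nearest genes was 28.0%. For the median, any peak and the 500 bp edge no share over all genes is given, so these counts have no background. The count with a peak centre within 1 kb of the TSS was 6, with 4 genes at 500 bp and 8 at 2 kb, both without a share over all genes. The median percentile of the 4 promoter scores was 87.2, and it was 82.8 among promoter peaks of like length, 73.1 for length in place of score and 81.4 for the highest peak of any class at all 8 genes. The median percentile of the 7 peaks over the TSS was 79.3, and it was 77.8 against genes with 2 or more peaks, 65.1 among peaks of like length and 88.7 for length in place of score. The peak over the TSS was the highest within 25 kb at 4 genes, within 10 kb at 6 and within 50 kb at 2, where wider windows hold more peaks. No share over all genes is given for the 10 kb and 50 kb windows. The cause was not tested for the percentiles. No paired analysis was possible because the anti-FLAG and the control group hold a single library each, and for the same reason none could be left out in turn.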

Other observations

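Scores in the list were heavily tied, and the ties fell unevenly over the 8 genes. Of all 49173 peaks, 4.76% held a score that no other peak had. At VIT_11s0052g01090 this was so for 5 of 6 peaks, the promoter peak and the 4 far upstream ones, and for 0 of the 27 peaks of the other 7 genes. High scores are shared less often in general. Among peaks within 10% of the same score, the share with a score of their own was 45.2% around 85.0 and 27.9% around 72.3, but 7.76% around 31.5, 6.26% around 27.2 and 3.07% around 9.58.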
